A study of Mus musculus with 294 samples.

Results

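Phase II conjugation enzymes attach a polar group to drugs, hormones and metabolites. The members were all genes whose annotated symbol begins with Ugt or Sult and a digit, with Gst, a class letter (a, m, p, t, k, o or z) and a digit, or with Mgst. By this rule 41 of the 16643 measured genes were members: 11 UDP-glucuronosyltransferases (Ugt), 11 sulfotransferases (Sult), 16 soluble glutathione transferases (Gst) and 3 microsomal glutathione transferases (Mgst). They were measured in liver RNA of 294 mice of an F2 cross labelled B6/J x A/J, both inbred strains, with 1 Affymetrix array per mouse. All mice form 1 labelled group, and their age, sex, diet and any treatment are not stated. The animals were described in 2 classes cut at a log2 value of 5 of Eif2s3y, a Y-linked gene for a subunit of a translation initiation factor. The Eif2s3y-high class held 49.7% of the 294 animals, the lowest of them at 6.97, and the Eif2s3y-low class held 50.3%, the highest of them at 3.03. Errors are SDs over the animals of a class. The classes come from a measured value and are not labels, so they are set side by side as a description with no test between them, and no animal was given a sex or a genotype.

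Ugt enzymes use UDP-glucuronic acid, Sult enzymes use the sulfate donor PAPS (3'-phosphoadenosine 5'-phosphosulfate), and Gst and Mgst enzymes use glutathione. The conjugates leave the hepatocyte through export pumps into bile or blood. The hepatocyte is the main site of these reactions, and many of the genes sit in tandem clusters of close relatives. Some of them, Sult3a1 among them, are known in mouse liver as genes of sex-biased expression.

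Values are log2 normalized intensities. Probe sets of different genes differ in sensitivity, so no gene's level was ranked against another's. Background was not measured. The medians of the 294 arrays over all probe sets lay between 4.40 and 4.53. Of the 41 members, 29 had a median below every array median in neither class, and 10 in both classes. Those 10 were Ugt2b37, Ugt8a, Sult1c1, Sult1e1, Sult2b1, Sult4a1, Sult6b1, Gsto2, Gstt4 and Mgst2, and their values may largely be background. For Ugt2b37, however, 45.2% of the high-class and 31.8% of the low-class animals lay above their own array median. The first 3 digits of the animal labels formed 15 blocks of 17 to 23 animals, treated as a possible batch. Markers of hepatocytes (Alb, Ttr, Fgb and Cps1, the measured 4 of 6 listed) had a median class level of 13.97 in the high class and 13.98 in the low class. The array of 1 high-class animal held its class's lowest value of 17 of the 41 members and lay over 3 SD below the median for 16, and it was among 32 arrays that correlated least with the rest. The counts of mixtures and the high-class median r of the Ugt pairs are also given without this outlying array. Ranges and block tests include it.

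Start-site sequences are shown for the member of widest spread in each class and for the closest relatives of the one in the high class. The windows run from 250 bases before to 50 bases after the start site, from RefSeq on mouse build GRCm38.p6. Sult3a1 lies at chr10:33857472-33857771 on the plus strand, and capitals mark a match to the STAT5-type motif TTCNNNGAA upstream of the start site. The 3 Ugt2b genes lie on the minus strand of chromosome 5, Ugt2b38 at chr5:87424154-87424453, Ugt2b37 at chr5:87254739-87255038 and Ugt2b5 at chr5:87140291-87140590. In Ugt2b37 and Ugt2b5, capitals mark bases with no identical partner in a global alignment to the Ugt2b38 window.
Sult3a1: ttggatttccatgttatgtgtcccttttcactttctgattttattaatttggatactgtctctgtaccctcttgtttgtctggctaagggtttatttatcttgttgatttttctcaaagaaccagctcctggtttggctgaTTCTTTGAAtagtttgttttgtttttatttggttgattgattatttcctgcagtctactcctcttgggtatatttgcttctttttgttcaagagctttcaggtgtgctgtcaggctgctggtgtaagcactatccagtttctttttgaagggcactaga
Ugt2b38: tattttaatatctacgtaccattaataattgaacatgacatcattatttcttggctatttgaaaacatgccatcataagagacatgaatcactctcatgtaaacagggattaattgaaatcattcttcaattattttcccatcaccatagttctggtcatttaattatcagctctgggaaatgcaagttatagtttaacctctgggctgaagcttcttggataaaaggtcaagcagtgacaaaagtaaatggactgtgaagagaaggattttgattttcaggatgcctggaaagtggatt
Ugt2b37: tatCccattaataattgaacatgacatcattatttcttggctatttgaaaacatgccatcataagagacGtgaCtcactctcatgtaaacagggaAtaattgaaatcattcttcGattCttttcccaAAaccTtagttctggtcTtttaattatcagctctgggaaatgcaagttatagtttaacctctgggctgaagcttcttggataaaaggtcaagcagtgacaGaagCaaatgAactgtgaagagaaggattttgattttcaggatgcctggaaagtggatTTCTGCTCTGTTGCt
Ugt2b5: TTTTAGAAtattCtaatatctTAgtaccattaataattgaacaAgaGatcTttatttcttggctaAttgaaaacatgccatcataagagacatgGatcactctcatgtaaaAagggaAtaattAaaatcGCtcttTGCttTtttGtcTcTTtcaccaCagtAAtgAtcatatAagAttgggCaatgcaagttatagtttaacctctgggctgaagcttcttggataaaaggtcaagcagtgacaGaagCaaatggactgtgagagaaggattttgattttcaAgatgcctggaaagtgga

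The Ugt2b37 and Ugt2b38 windows were identical in 86.9% of aligned columns, Ugt2b38 and Ugt2b5 in 84.2%, and Ugt2b37 and Ugt2b5 in 76.2%. The median over all 666 pairs of the 37 members with a window was 45.1%, so these 3 genes are near copies at their start sites. Coding sequences were not compared, and whether probe sets of one Ugt2b gene also hybridise with transcripts of another was not tested. Motifs were searched on both strands by letters alone. Repeat sequence was not masked, and whether a window or a match lies in a repeat was not tested. The 37 members had 48 windows, since some have several start sites. The STAT5-type motif was found in 4 of these windows (8.33%; Sult3a1, Gstm6, Mgst1 and Mgst2), beside 8.30% of all 32851 windows. The antioxidant response motif TGACNNNGC was also in 4 (8.33%; Gsta3, Gstm5, Gstm7 and Mgst1), beside 12.4% of all. TATAAA was in 16.7% of the members' windows and 13.6% of all, TTGCNNAA (a C/EBP-type motif) in 16.7% and 10.8%, and GTTAAT (an HNF1-type motif) in 10.4% and 7.10%. No match says only that these letters are not in these windows.

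The genes of the classical Ugt2 family sat together. By gene order, 11 members lay in 1 cluster on chromosome 5: Ugt2b34, Ugt2b1, Ugt2b35, Ugt2b36, Ugt2b5, Ugt2b37, Ugt2a3, Ugt2b38, Sult1b1, Sult1d1 and Sult1e1. The mu-class genes Gstm1, Gstm4, Gstm5, Gstm6 and Gstm7 lay together on chromosome 3, and the theta-class genes Gstt1, Gstt2, Gstt3 and Gstt4 on chromosome 10. The pairs Gsta2 and Gsta4, Gsto1 and Gsto2, Sult1c1 and Sult1c2, and Ugt3a1 and Ugt3a2 were also neighbours. A cluster here joins members less than 2000000 bases apart.

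Ugt2b38, which belongs to the glucuronosyltransferases that act on steroids and drugs, was the Ugt gene that varied most, and it did so in the high class. Its high-class values ran from 3.85 to 10.20 with a median of 6.88 ± 1.69 (SD). Its low-class values ran from 3.43 to 6.33 with a median of 3.96 ± 0.37 (SD). The high-class animals filled the whole range, while most low-class animals lay below their array median: 87% of the high-class animals and 4.73% of the low-class animals lay above their own array median. The medians were 2.92 apart, a 7.57-fold difference that is uncertain because the low-class level lies in the background range. Of the high-class animals, 57.5% lay above every low-class animal.

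Sult3a1, which sulfates amines in the mouse, showed the opposite arrangement. Its low-class values ran from 2.46 to 10.76 with a median of 7.26 ± 1.74 (SD), and 89.2% of the animals lay above their own array median. Its high-class median was 2.36 ± 0.40 (SD), its highest value 5.57, and 1 animal lay above its own array median. The medians differed by 4.90 on the log2 scale (29.8-fold), with the high-class level below every array median, so the fold is uncertain. Of the low-class animals, 79.7% lay above every high-class animal.

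**Figure D1:**
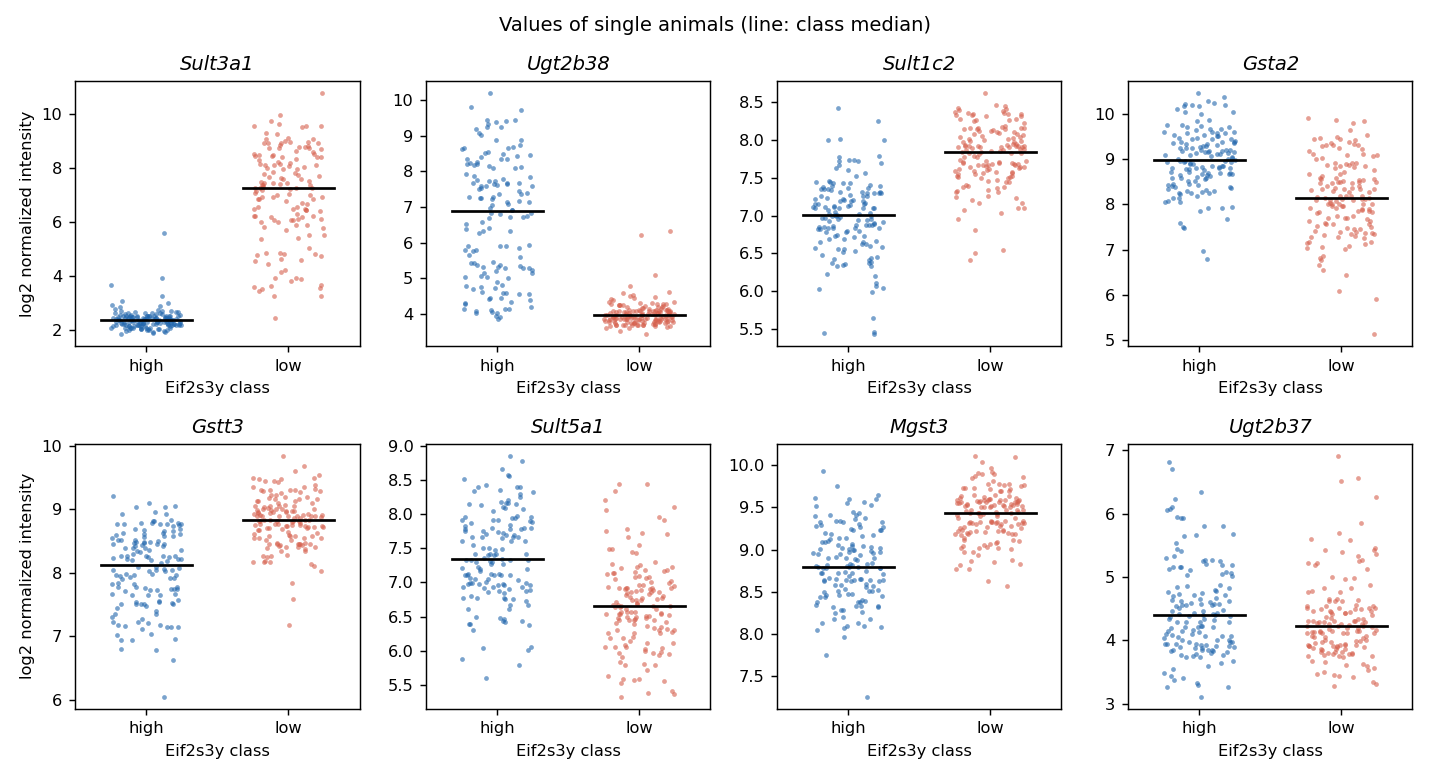
Log2 normalized intensity (y axis) of 8 phase II genes in single animals of the Eif2s3y-high and Eif2s3y-low classes, with a line at each class median; points are spread sideways at random. Sult3a1 runs from 2.46 to 10.76 in the low class and Ugt2b38 from 3.85 to 10.20 in the high class, while the other class of each gene lies mostly below the array medians, with single animals up to 5.57 for Sult3a1 and 6.33 for Ugt2b38.

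Of the 41 members, Sult3a1 and Ugt2b38 were the 2 whose class medians differed by at least 1 on the log2 scale, against 0.595% of all genes (0.324% with the high class higher and 0.27% with the low class higher). The same 2 members had 10th to 90th percentile intervals that did not overlap between classes, against 0.541% of all genes. At 1.5-fold, 7 of 41 members differed, against 1.65% of all genes. The median absolute difference was 0.14 over the members and 0.05 over all genes. Just inside the 1.5-fold threshold lay Mgst3 at a difference of -0.64 (high minus low), and just outside it lay Sult1d1 at -0.56.

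Differences by family ran in unlike directions. Of the 11 Ugt genes, 10 had the higher median in the high class, while 11 of the 16 Gst genes had the higher median in the low class. Over all genes, 56.5% had the higher median in the high class. Several of these differences were close to 0, among them Ugt8a at 0.006 and Ugt2b34 at 0.009. The Sult genes were split, with 5 higher in the high class and 6 in the low class. The median difference (high minus low) was 0.14 over the Ugt genes, -0.09 over the Gst genes and -0.01 over the Sult genes, beside 0.01 over all genes. None of these directions was tested. All 8 measured Kupffer cell markers had lower medians in the high class, by differences of -0.48 to -0.79, while the 4 hepatocyte markers differed by at most 0.05 in size, and the part of Kupffer cells in the class differences was not tested.

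Among the Ugt genes other than Ugt2b38, Ugt2b1 differed most. It ran from 10.25 to 12.73 with a median of 12.05 ± 0.39 in the high class, and from 10.73 to 12.08 with a median of 11.50 ± 0.24 in the low class. The rat enzyme of that name glucuronidates bisphenol A. The classes overlapped, with 68 high-class animals above every low-class animal. Ugt2b35 ran from 9.28 to 11.08 (median 10.39 ± 0.31) in the high class and from 9.28 to 10.53 (median 10.01 ± 0.26) in the low class, so that 44 high-class animals exceeded every low-class one. The other Ugt medians lay within 0.27 of each other between classes. They were 12.89 and 12.62 (high and low) for Ugt2b5, 12.85 and 12.71 for Ugt2b36, 11.67 and 11.66 for Ugt2b34, and 10.89 and 10.86 for Ugt2a3. For the Ugt3 genes, whose human relatives use sugar donors other than UDP-glucuronic acid, they were 9.997 and 9.90 for Ugt3a1 and 12.10 and 12.17 for Ugt3a2. Ugt2b37 had medians of 4.40 ± 0.75 and 4.22 ± 0.65 but reached 6.82 in the high class and 6.91 in the low class, with 66 and 47 animals above their own array median. Ugt8a, the ceramide galactosyltransferase of myelin, stayed at 2.15 and 2.14.

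Among the Sult genes, Sult1c2, an aryl sulfotransferase, ran from 5.44 to 8.42 (median 7.005 ± 0.51) in the high class and from 6.41 to 8.62 (median 7.84 ± 0.41) in the low class, where it was higher by 1.79-fold. Sult5a1 was higher in the high class, by 1.61-fold: it ran from 5.59 to 8.85 (median 7.34 ± 0.66) there and from 5.33 to 8.44 (median 6.65 ± 0.64) in the low class. Both genes overlapped over most of their range. Sult1d1, which sulfates catecholamines in the mouse, had medians of 9.58 ± 0.44 (range 7.86 to 10.86) in the high class and 10.14 ± 0.33 (range 9.06 to 10.83) in the low class. Sult1a1, the main phenol sulfotransferase, had medians of 11.59 ± 0.36 (range 10.18 to 12.36) and 12.08 ± 0.28 (range 11.03 to 12.56). Thus both were higher in the low class, by under 1.5-fold. Sult1b1, which sulfates thyroid hormones, was higher in the high class, with medians of 7.94 ± 0.32 (range 5.97 to 8.64) and 7.54 ± 0.29 (range 6.51 to 8.08). The remaining medians (high and low) lay below every array median: 4.30 and 4.22 for the brain enzyme Sult4a1, 3.21 and 3.31 for the estrogen sulfotransferase Sult1e1, 2.94 and 2.95 for the cholesterol sulfotransferase Sult2b1, 2.70 and 2.63 for Sult1c1, and 2.08 and 2.07 for Sult6b1. Sult2a8, annotated on the array under an older name and so outside the rule, had medians of 12.38 ± 0.30 and 11.45 ± 0.39.

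Among the alpha-class glutathione transferases, Gsta2 was higher in the high class and Gsta4 in the low class. Gsta2, an inducible enzyme, ran from 6.79 to 10.46 (median 8.99 ± 0.68) in the high class and from 5.14 to 9.91 (median 8.15 ± 0.85) in the low class, a 1.79-fold difference of overlapping classes. Gsta4, which clears the lipid peroxidation product 4-hydroxynonenal, had medians of 9.83 ± 0.40 and 10.13 ± 0.31. Gsta3, which detoxifies aflatoxin epoxide in the mouse, had medians of 13.06 and 12.87. The theta-class Gstt3 ran from 6.05 to 9.22 (median 8.12 ± 0.61) in the high class and from 7.18 to 9.84 (median 8.83 ± 0.41) in the low class, where it was 1.64-fold higher and 25 animals exceeded every high-class animal. Its neighbour Gstt2 had medians of 9.79 ± 0.32 (range 8.83 to 10.80) and 10.17 ± 0.26 (range 9.13 to 10.76), Gstt1 had 12.13 and 12.21, and Gstt4 had 3.95 and 3.88. The theta genes thus lay higher in the low class, apart from Gstt4, whose level is in the background range.

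Gstm6 stood apart among the mu-class genes, with medians of 8.98 ± 0.36 (range 7.60 to 9.59) in the high class and 8.58 ± 0.30 (range 7.88 to 9.21) in the low class. Gstm5 went the other way, at 7.47 and 7.79, and the other mu-class medians (high and low) were 12.14 and 12.14 for Gstm1, 8.07 and 8.14 for Gstm4, and 8.93 and 9.05 for Gstm7. Gsto1, an omega-class enzyme that reduces dehydroascorbate, had medians of 10.37 ± 0.22 (range 9.84 to 10.85) and 10.77 ± 0.22 (range 10.13 to 11.27). For Gsto1, 52 low-class animals lay above every high-class animal. Its neighbour Gsto2 had medians of 2.48 and 2.59. The mitochondrial and peroxisomal Gstk1 had medians of 11.33 and 11.42, and Gstz1, an isomerase of tyrosine breakdown, 12.34 and 12.32. Of the membrane-bound enzymes, Mgst3 ran from 7.26 to 9.92 (median 8.80 ± 0.45) in the high class and from 8.57 to 10.11 (median 9.44 ± 0.30) in the low class, so that 42 high-class animals lay below every low-class animal. Mgst1 had medians of 13.87 and 13.80, and Mgst2, which can form leukotriene C4, had 3.36 and 3.35.

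**Figure D2:**
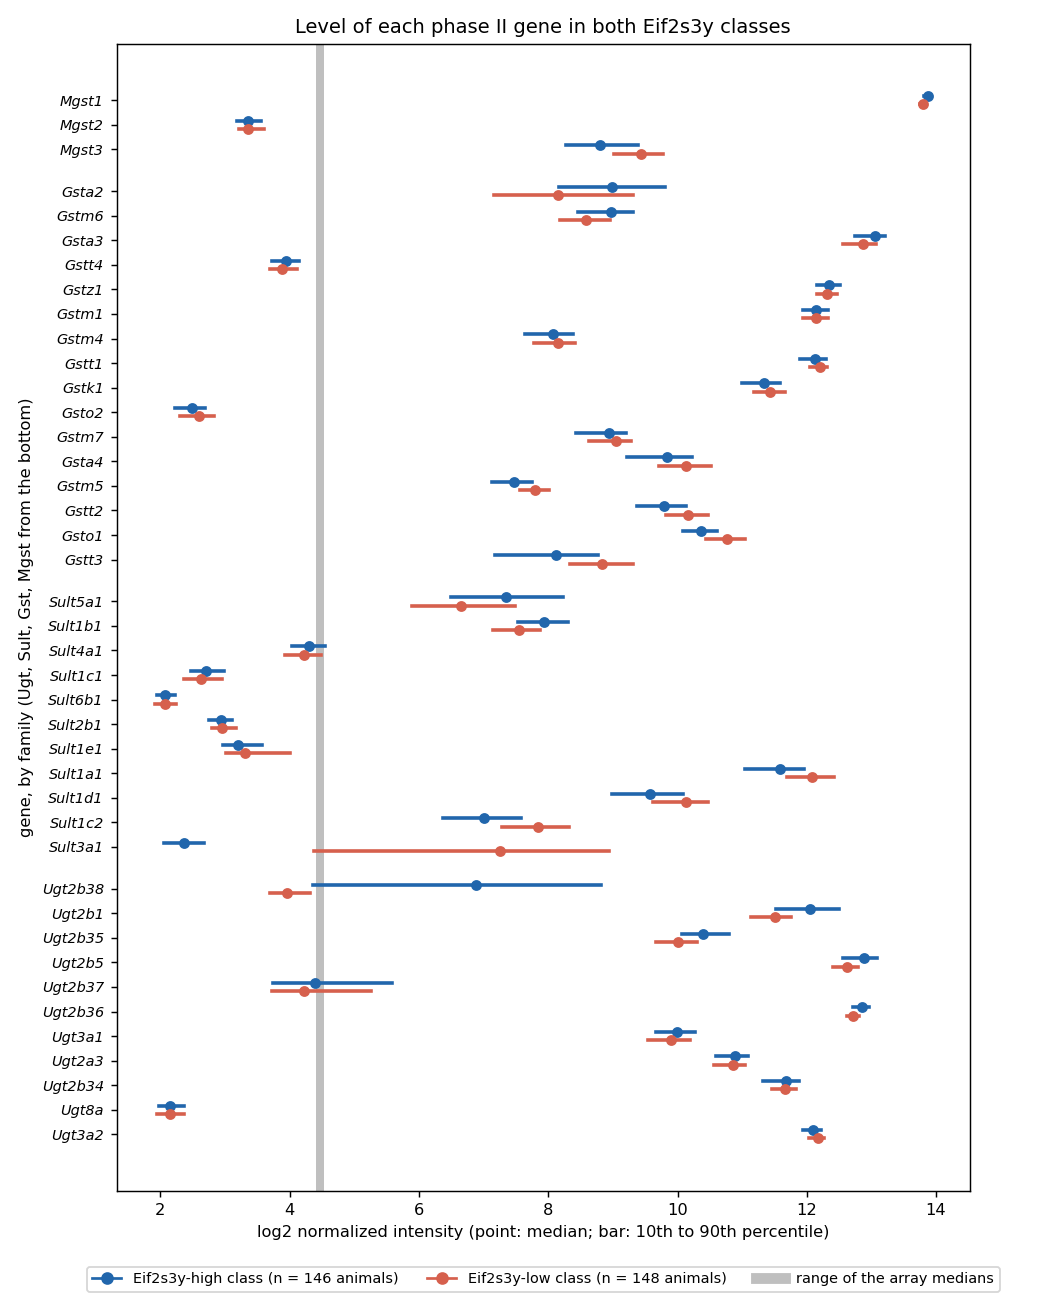
Median log2 normalized intensity (points) with the 10th to 90th percentile over animals (bars) for all 41 phase II genes in the Eif2s3y-high and Eif2s3y-low classes; the grey band is the range of the array medians, 4.40 to 4.53, and levels of different genes are not comparable. The bars of Sult3a1 and Ugt2b38 do not overlap between classes, and 10 genes have both medians below the band.

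Spread over animals was taken as the ratio of the 90th to the 10th percentile. In the high class, 8 of 41 members spanned at least 2-fold, against 4.49% of all genes, and in the low class 5 of 41, against 3.85%. The 8 were Ugt2b38 (22-fold), Ugt2b37 (3.57), Sult5a1 (3.34), Gsta2 (3.12), Gstt3 (3.03), Sult1c2 (2.31), Mgst3 (2.16) and Sult1d1 (2.12). The 5 were Sult3a1 (23.7-fold), Gsta2 (4.45), Sult5a1 (3.03), Ugt2b37 (2.89) and Sult1c2 (2.04). Gsta4 (1.997-fold) and Ugt2b1 (1.96) lay just outside the threshold in the high class, and Sult1e1 (1.99) and Gstt3 (1.97) in the low class. The median spread of the members was 1.51-fold in the high class and 1.52-fold in the low class, beside 1.38-fold and 1.36-fold over all genes. The narrowest spans were those of bright members: Mgst1 spanned 1.08-fold and 1.07-fold, Ugt2b36 1.18-fold and 1.14-fold, and Ugt3a2 1.21-fold and 1.18-fold (high and low). Other bright genes had SDs as small as the 0.046 of Mgst1 in the high class, such as albumin (Alb) at 0.039 and transthyretin (Ttr) at 0.044, and whether the probe sets of bright genes were near the top of their range was not tested. A narrow span of a gene below the array medians, such as Sult6b1 (1.22-fold and 1.25-fold), may describe background only.

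Shape was described by fitting 1 normal, 2 normals of equal SD, and 3 equally spaced normals in the ratio 1:2:1 that an F2 cross can give at 1 locus. A mixture was called for 12 of 41 members in the high class, against 9.57% of all genes, and for 6 of 41 in the low class, against 8.52%. All of these were calls of 2 normals, which made up 9.47% of all genes in the high class and 8.36% in the low class. The 1:2:1 form was called for no member, beside 0.0961% and 0.156% of all genes. Most calls in the high class rested on a few outlying animals, since the smaller component held under 5% of the animals in 8 of the 12 calls in the high class and in 2 of the 6 in the low class. With at least 5% required, a condition added after the data were seen, 4 members stayed in the high class (background 3.29%) and 4 in the low class (background 3.2%). Without the animal lowest in most members of each class, 8 and 5 members were called, and no share of all genes is given for these counts.

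Ugt2b38 in the high class was the only member call with comparable components, with means of 5.06 and 7.96, a common SD of 0.86 and 55.8% of the animals in the upper one. The values had no gap between the components: the largest step between neighbouring animals was 0.40. Ugt2b37 had 12.7% of the low-class animals in an upper component with a mean of 5.63, above a main component at 4.15. Sult1e1 had 8.66% of that class in an upper component at 4.43, a level still in the range of the array medians. The others had a small lower component. Ugt2b34 held 6.49% of the high class around 10.79 and 7.30% of the low class around 11.05, below main components at 11.67 and 11.68. Gsta3 held 13.2% of the low class around 12.49, Gstm6 9.28% of the high class around 8.14, and Gstt1 6.48% of the high class around 11.69. The calls on smaller groups were those of Ugt2b36, Ugt2a3, Ugt3a2, Sult1b1, Sult1e1, Sult3a1, Gsta3 and Gstz1 in the high class and of Gstz1 and Ugt2b38 in the low class. For Ugt2b36 and Sult1b1 the smaller component held 0.685% of the high class, the share of 1 animal. Sult3a1 in the low class, despite its wide range, was not called.

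**Figure D3:**
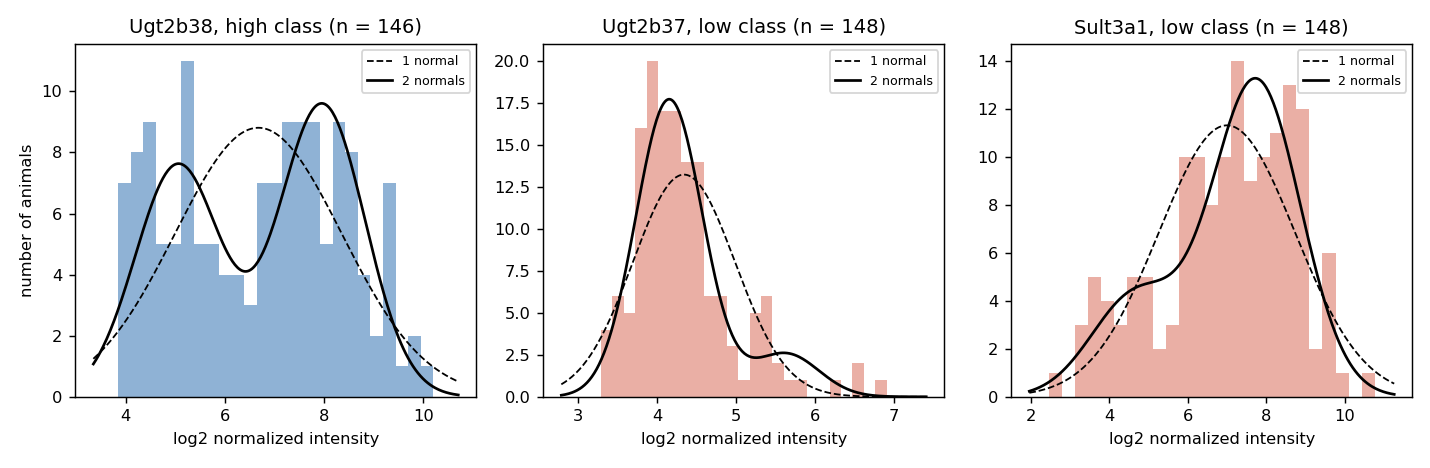
Number of animals (y axis) by log2 normalized intensity (x axis) for Ugt2b38 in the high class and Ugt2b37 and Sult3a1 in the low class, with the fits of 1 normal (dashed) and 2 normals of equal SD (solid). Ugt2b38 has components at 5.06 and 7.96 with no empty stretch between them, Ugt2b37 has a small upper shoulder around 5.63, and the low-class Sult3a1 fit of 2 normals did not pass the call.

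Label blocks were compared across all animals with limma's moderated F test, with the Eif2s3y class as a term and Benjamini-Hochberg adjustment over all genes. Of the 41 members, 21 differed between blocks, against 38.4% of all genes. The blocks took a median of 9.06% of a member's variance, beside 7.58% over all genes. Ugt2b5 had the largest share at 29.1% (adjusted p = 1.2e-12), with block means from 0.23 below to 0.16 above the class level. Ugt2b34 followed at 23.9% (adjusted p = 2.14e-09), Ugt2b1 at 21.3% (adjusted p = 6.69e-08) and the isomerase Gstz1 at 20.3% (adjusted p = 4.12e-07). Ugt2b5 and Ugt2b34 shared the lowest block, and both shared the highest block with Ugt2b1. The block that holds the outlying high-class array was the lowest for 10 of the 21. The genes of widest spread, Ugt2b38 (8.31%, adjusted p = 0.0802) and Sult3a1 (6.98%, adjusted p = 0.192), did not pass. Within the high class alone 16 members differed, against 28.3% of all genes, and within the low class alone 7, against 15.9%.

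Coexpression was measured as Pearson's r over the animals of a class. An r was called when it passed Benjamini-Hochberg adjustment over all 138486403 gene pairs, which in both classes meant an absolute r of 0.217. Of the 820 pairs of members, 32.2% were called in the high class, against 17.2% of all gene pairs, and 23.2% in the low class, against 16.2%. By sign, 28.4% were positive and 3.78% negative in the high class, beside 9.77% and 7.46% of all gene pairs. The low-class shares were 19.5% and 3.66%, beside 9.24% and 6.94%. Pairs share genes and animals and are not independent. Of these pairs, 16.8% were called in both classes, 15.4% in the high class alone, 6.34% in the low class alone and 61.5% in neither. Whether r differed between the classes was not tested. With label block means removed, 33% and 23.4% of the pairs were called. The median r was 0.06 over the members' pairs in the high class and 0.05 in the low class, beside -0.004 and -0.003 over all gene pairs. The called share varied with level. Of the 435 pairs of members with a class median not below every array median, 52.9% were called in the high class and 36.1% in the low class. No share of all gene pairs is given here for genes of like level.

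Pairs were then counted by family, beside the 17.2% and 16.2% of all gene pairs, with no test between families. Of the 55 Ugt pairs, 40 were called in the high class and 25 in the low class, with a median r of 0.47 and 0.19. Of the 120 Gst pairs, 67 and 40 were called, with a median r of 0.26 and 0.13. No Ugt pair and no Gst pair was called negative in either class. Of the 55 Sult pairs, 11 and 9 were called (20% and 16.4%), shares near those of all gene pairs, with a median r of 0.02 and 0.03. Of the 3 Mgst pairs, none was called in the high class, and in the low class the 1 call, Mgst2 with Mgst3, was negative. The high-class Ugt median was 0.38 without the least correlated arrays and 0.41 without the outlying array. Of the 75 pairs within a gene cluster, 53 were called in the high class and 36 in the low class, beside 28.3% and 20.7% of the other pairs, and this difference was not tested.

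**Figure D4:**
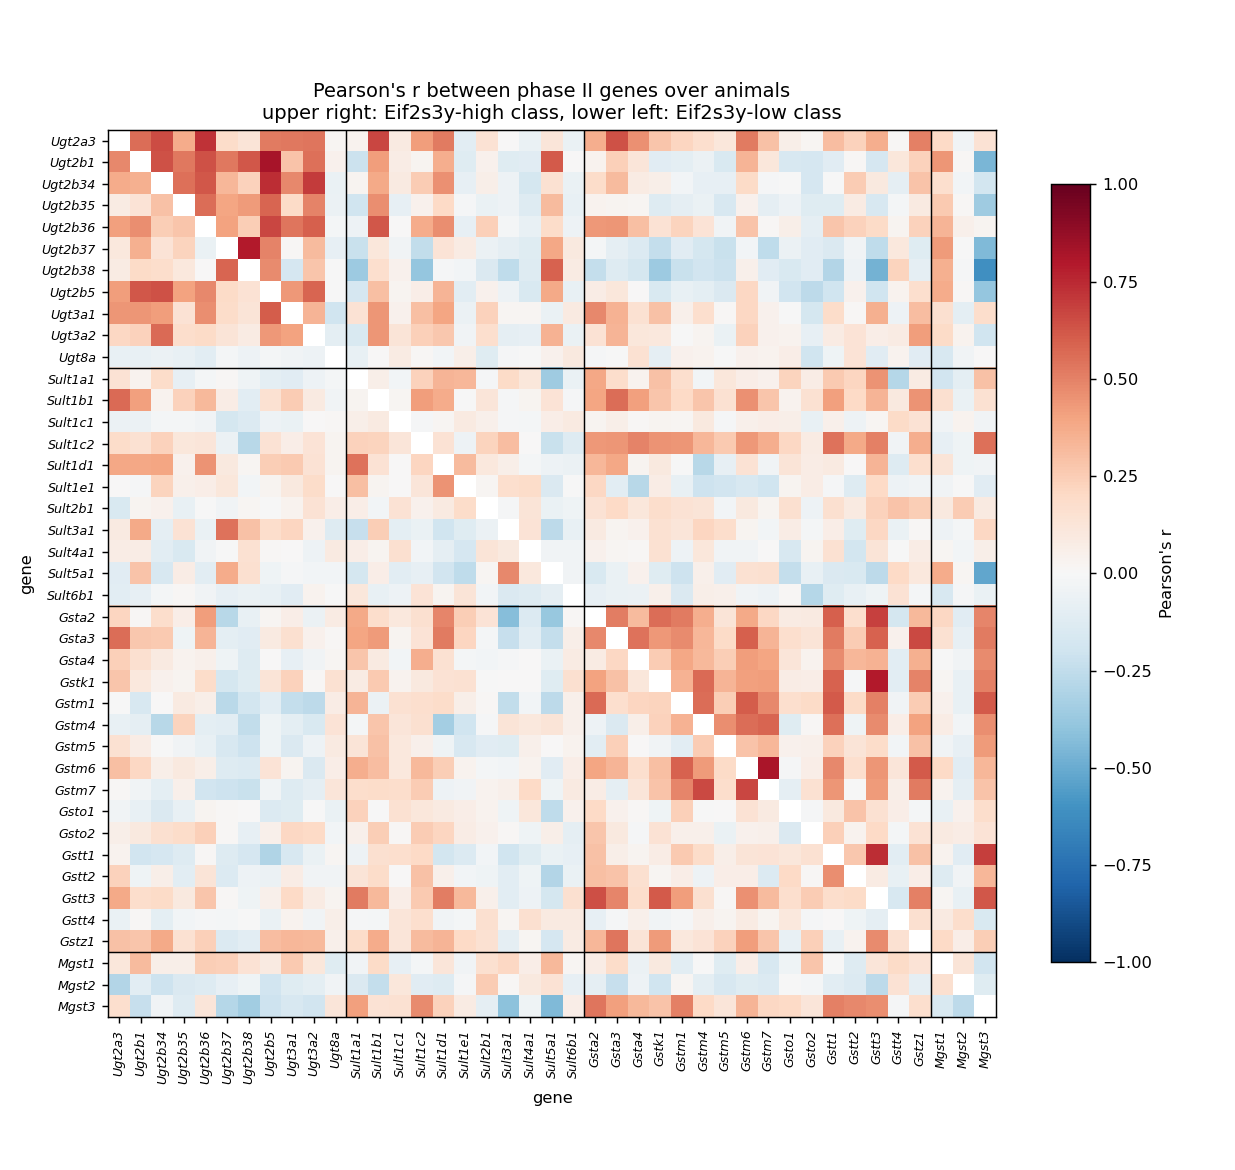
Pearson's r (colour scale from -1 to 1) between all phase II genes over the animals of the Eif2s3y-high class (upper right) and the Eif2s3y-low class (lower left), with lines between the Ugt, Sult, Gst and Mgst families. The Ugt and Gst blocks are mostly red, with a median r of 0.47 and 0.26 in the high class, and the rows of Sult1c1, Sult4a1 and Ugt8a hold no called pair.

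The closest Ugt pairs joined neighbours of the chromosome 5 cluster. Every pair named here had a two-sided permutation p of 1e-05 for r and for Spearman's rho (100000 resamples allow none smaller). Ugt2b1 and Ugt2b5 had an r of 0.82 (rho 0.80, adjusted p = 1.68e-32) in the high class and 0.62 (rho 0.64, adjusted p = 6.61e-14) in the low class. Ugt2b34 and Ugt2b5 had 0.74 (rho 0.70, adjusted p = 1.13e-22) and 0.63 (rho 0.47, adjusted p = 7.84e-15). With label block means removed these 4 values were 0.80, 0.52, 0.69 and 0.58, and Ugt2b5, Ugt2b34 and Ugt2b1 are the members with the largest block shares. Ugt2b5 also moved with Ugt3a1 of chromosome 15 in the low class, at 0.61 (rho 0.61, adjusted p = 2.52e-13).

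Ugt2b37 and Ugt2b38, the near copies whose windows are printed above, had an r of 0.79 (rho 0.80, adjusted p = 4.17e-28) in the high class. Below and above the midpoint of the Ugt2b38 components, 6.51, r was 0.54 (n = 64) and 0.65 (n = 82). The low-class r, with most Ugt2b38 values near background, was 0.58 (rho 0.30), and 0.48 without the 2 farthest animals. For 2 further Ugt pairs of the high class, a few arrays carried much of the value. Ugt2a3 and Ugt2b36 had 0.72 (rho 0.55, adjusted p = 7.76e-21), which was 0.53 without the 2 animals farthest from the median and 0.46 without the least correlated arrays. Ugt2b34 and Ugt3a2 had 0.70 (rho 0.45, adjusted p = 3.58e-19), which was 0.44 without those arrays.

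Among the glutathione transferases, the mu-class neighbours Gstm6 and Gstm7 were the closest pair in both classes, at 0.81 (rho 0.77, adjusted p = 3.48e-31) in the high class and 0.67 (rho 0.65, adjusted p = 3.49e-17) in the low class. Gstm4 and Gstm7 had, in the low class, 0.66 (rho 0.60, adjusted p = 1.74e-16) and Gstm1 and Gstm6 had 0.59 (rho 0.55, adjusted p = 2.23e-12). Gstk1 and Gstt3 lie on different chromosomes and had 0.79 (rho 0.80, adjusted p = 4.59e-28) and 0.61 (rho 0.62, adjusted p = 1.76e-13). Gstt3 also moved with its neighbour Gstt1 in the high class, at 0.74 (rho 0.73, adjusted p = 1.6e-22). Gstt3 moved with Gsta2 in the low class, at 0.64 (rho 0.58, adjusted p = 1.89e-15). All of these named r values have a permutation p of 1e-05. The low-class r of Gstt1 and Gstt3 was 0.17 (rho 0.08, permutation p = 0.0332 and 0.328) and was not called.

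**Figure D5:**
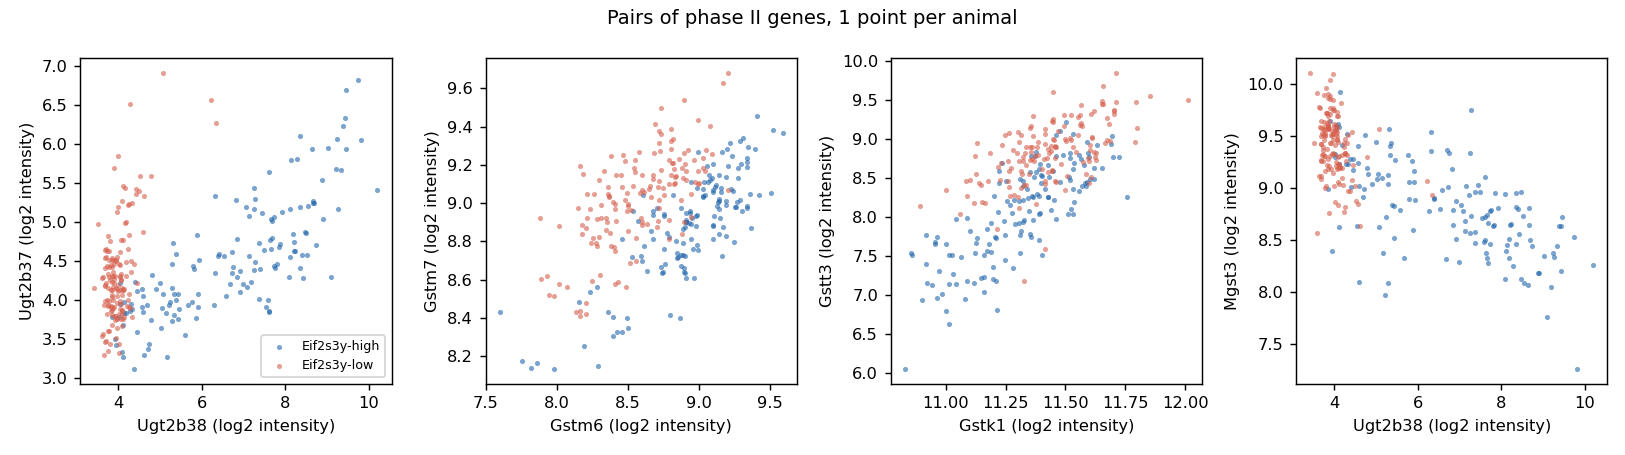
Log2 normalized intensities of 4 pairs of phase II genes, with 1 point per animal of the Eif2s3y-high (blue) and Eif2s3y-low (red) classes. In the high class r is 0.79 for Ugt2b38 and Ugt2b37, 0.81 for Gstm6 and Gstm7, 0.79 for Gstk1 and Gstt3, and -0.62 for Ugt2b38 and Mgst3.

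By count, the members with most negative calls in the high class were Ugt2b38 with 9, Ugt2b37 with 7, and Mgst3 and Sult5a1 with 6 each. In the low class they were Sult5a1 with 7, Mgst3 with 6, and Gstm1, Mgst2 and Sult3a1 with 5 each. The 4 lowest r values of each class, given next, all involve Mgst3, Gstt3 or Gsta2. The lowest high-class r was that of Mgst3 and Ugt2b38, at -0.62 (rho -0.63, adjusted p = 1.03e-13), and within the class it was -0.24 below and -0.55 above the midpoint of the Ugt2b38 components. Mgst3 and Sult5a1 had -0.52 (rho -0.52, adjusted p = 4.45e-09), Gstt3 and Ugt2b38 -0.47 (rho -0.49, adjusted p = 1.67e-07), and Mgst3 and Ugt2b1 -0.46 (rho -0.53, adjusted p = 5.98e-07). For Gstt3 and Ugt2b38, r was -0.15 and -0.32 below and above that midpoint. Among low-class animals Mgst3 and Sult5a1 had -0.44 (rho -0.42, adjusted p = 2.23e-06), Gsta2 and Sult3a1 -0.43 (rho -0.50, adjusted p = 4.71e-06), Mgst3 and Sult3a1 -0.41 (rho -0.40, adjusted p = 1.85e-05), and Gsta2 and Sult5a1 -0.38 (rho -0.41, adjusted p = 7.87e-05). Each of these has a permutation p of 1e-05 for r and rho.

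Sult3a1 in the low class moved with Ugt2b37 at 0.54 (rho 0.58), with Sult5a1 at 0.48 (rho 0.47) and with Ugt2b1 at 0.38 (rho 0.33). Their permutation p for r was 1e-05, the smallest possible. The 2 pairs called with opposite sign in the classes were both of Sult3a1. With Sult5a1 its r was -0.26 in the high class and 0.48 in the low class, and with Ugt2b38 it was -0.25 and 0.29. The high-class Sult3a1 values lie below the array medians apart from 1 animal, and without the 2 farthest animals these r values were -0.17 and -0.20. The permutation p of the high-class values was 0.0013 for Sult5a1 and 0.00085 for Ugt2b38. Sult1c1, Sult4a1 and Ugt8a had no called partner among the members in either class, and the medians of all 3 lie below the array medians.

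Between families, 43 Ugt-Gst pairs (24.4%) were called in the high class, 33 positive and 10 negative, and 29 (16.5%) in the low class, 21 positive and 8 negative. The low-class share is at that of all gene pairs (16.2%), and the high-class share compares with 17.2%. Of the Sult-Gst pairs, 40 (22.7%; 34 positive) and 38 (21.6%; 29 positive) were called. Sult1c2 had the most called partners in the high class, 26 of 40, of which 23 were positive. Gsta3, Gstz1 and Mgst3 led in the low class with 18 each.

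The wider pathway was taken from 8 lists of cofactor supply, sensors and their targets, transporters, other phase II enzymes and deconjugating enzymes, of whose 89 genes 81 were measured. Of 3321 pairs of a member and a listed gene, 1016 were called in the high class (697 of them positive), a share of 30.6% beside the 17.2% of all gene pairs. The low-class calls numbered 696 (488 of them positive), a share of 21% beside 16.2%. By list, the share in the high class was 38.4% for UDP-glucuronic acid supply, 35.5% for conjugate transporters, 34.3% for sensor targets, 33.7% for other phase II enzymes, 31.4% for PAPS supply, 27.5% for xenobiotic sensors, 27.3% for glutathione supply and 16% for deconjugating enzymes. The same lists gave, in the same order for the low class, 30.5%, 23.5%, 23.2%, 25%, 17.4%, 18%, 17.3% and 13.9%. These shares were not tested against the background.

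Pairs with cofactor genes were counted for the family that uses the cofactor and for another family. Of all gene pairs, 17.2% were called in the high class and 16.2% in the low class. UDP-glucuronic acid genes were called in 21 of 44 pairs with Ugt genes in the high class (14 positive, 7 negative) and 15 of 44 in the low class, and in 31 of 64 and 17 of 64 pairs with Gst genes. PAPS genes were called in 18 of 77 pairs with Sult genes in the high class (7 positive, 11 negative) and 9 of 77 in the low class, and in 37.5% and 20.5% of pairs with Gst genes. Glutathione genes were called in 50 of 160 pairs with Gst genes in the high class (29 positive, 21 negative) and 31 of 160 in the low class, and in 39 of 110 and 19 of 110 pairs with Ugt genes. Mgst genes, which also use glutathione, were called with glutathione genes in 6 of 30 pairs in the high class and 4 of 30 in the low class. As shares (high and low), UDP-glucuronic acid genes gave 47.7% and 34.1% with Ugt and 48.4% and 26.6% with Gst genes. PAPS genes gave 23.4% and 11.7% with Sult genes. Glutathione genes gave 31.25% and 19.4% with Gst, 35.5% and 17.3% with Ugt and 20% and 13.3% with Mgst genes. None was tested against the shares of all gene pairs.

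Single pathway genes were taken as the 3 with most called members in each list in the high class, with the low-class count of 41 beside them. Of all gene pairs, 17.2% were called in the high class and 16.2% in the low class. Of the transporters, the efflux pump Abcb1a was called with 25 members (22 positive), Slco1a1 with 23 (11 positive) and Slco1a4 with 22 (19 positive), against 20, 14 and 10 in the low class. Of the other phase II enzymes, the histamine methyltransferase Hnmt was called with 25 (all positive), the indolethylamine methyltransferase Inmt with 22 (21 positive) and the glycine acyltransferase Glyat with 20 (14 positive). The low class gave 18 for Hnmt, all positive, 12 for Inmt (8 positive) and 15 for Glyat (12 positive). Of the sensor targets, the aldehyde dehydrogenases Aldh1a7 and Aldh1a1 were called with 24 and 21, all positive, and Nqo1 with 23 (18 positive), against 14, 11 and 18 in the low class. These lists moved mostly in the positive direction with the members that they were called with, apart from Slco1a1.

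Of the sulfate donor genes, Papss2, which makes PAPS, was called with 24 (all positive), the sulfite oxidase Suox with 19 (16 positive) and Papss1 with 15 (1 positive), against 16, 9 and 5 in the low class. Of the genes listed for UDP-glucuronic acid supply, Ugp2, which makes UDP-glucose, was called with 23 (all positive), against 19 in the low class. The endoplasmic reticulum transporters Slc35b1 and Slc35d1 were called with 19 (all negative) and 11 (10 negative), against 10 and 5. Slc35b1 thus gave 19 of the 30 negative calls of this list in the high class, and its part in the supply was not tested. Of the genes listed for glutathione supply, the thioredoxin reductase Txnrd1 was called with 24, all negative, in the high class. Its low-class calls were 7, 4 positive and 3 negative. Txnrd1 thus gave 24 of the 55 negative calls of this list in the high class, and its part in the supply was not tested. Cbs, an enzyme of cysteine synthesis, was called with 20 (9 positive, 11 negative) and the glutathione peroxidase Gpx1 with 18 (all positive), against 9 and 10. Of the sensors, the nuclear receptors Hnf4a, Nr3c1 and Rxra were called with 19 (17 negative), 18 (all positive) and 17 (all negative). In the low class Hnf4a was called with 13 (12 negative), Nr3c1 with 8 (6 positive) and Rxra with 10 (9 negative). Of the deconjugating enzymes, the sulfatases Ids and Arsa were called with 17 (10 positive) and 7 (6 positive) and the peptidase Anpep with 9 (3 positive). The low class gave 13 for Ids (7 positive), 11 for Arsa (10 negative) and 4 for Anpep (all negative). Whether the direction of Arsa differed between the classes was not tested. Near or below the shares of all gene pairs lay Arsa in the high class and Papss1, Slc35d1, Txnrd1 and Anpep in the low class.

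Slco1a1, a liver uptake transporter of organic anions, had some of the largest r values with the members of wide spread. Its own class medians were 10.50 in the high class and 6.27 in the low class. In the high class it was positively related to Ugt2b38 (r 0.61, rho 0.66, adjusted p = 2.72e-13) and Sult5a1 (r 0.60, rho 0.61, adjusted p = 1.34e-12) and negatively to Mgst3 (r -0.62, rho -0.63, adjusted p = 7.24e-14). Among low-class animals it was positively related to Sult3a1 (r 0.56, rho 0.57, adjusted p = 8.97e-11) and Sult5a1 (r 0.55, rho 0.58, adjusted p = 2.63e-10) and negatively to Mgst3 (r -0.58, rho -0.58, adjusted p = 5.48e-12) and Gsta2 (r -0.48, rho -0.50, adjusted p = 1.35e-07). These 7 relations have a permutation p of 1e-05 for r and rho.

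Nqo1, a quinone reductase induced by electrophiles, and Abcb1a, a drug efflux pump, were positively related to Mgst3 and Gstt3 and negatively to Ugt2b38 in the high class. With Mgst3 their r was 0.68 each (rho 0.66 and 0.69, adjusted p = 5.25e-18 and 8.74e-18). With Gstt3 it was 0.64 each (rho 0.67 and 0.63, adjusted p = 2.52e-15 and 6.39e-15). With Ugt2b38 it was -0.55 and -0.58 (rho -0.55 and -0.61, adjusted p = 1.26e-10 and 4.79e-12). Sult1c2 moved with the uptake transporter Slco1a4 (r 0.67, rho 0.62, adjusted p = 3.02e-17) and with Abcb1a (r 0.64, rho 0.63, adjusted p = 2.66e-15). Gstt3 moved with the sulfite oxidase Suox in both classes, at 0.67 (rho 0.67, adjusted p = 6.22e-17) and 0.55 (rho 0.56, adjusted p = 2.19e-10). Among low-class animals it moved with the glycine methyltransferase Gnmt (r 0.67, rho 0.62, adjusted p = 6.22e-17) and with Cth, which makes cysteine (r 0.57, rho 0.59, adjusted p = 1.64e-11). Each has a permutation p of 1e-05 for r and rho. With label block means removed, 945 of the 3321 pathway pairs were called in the high class and 705 in the low class.

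Markers of liver zones and of other cells and tissues were set against the members in the same way. Of 3075 pairs with 74 measured markers of 14 lists, 15.8% were called in the high class and 10.9% in the low class, below the share over all gene pairs in both. The 4 hepatocyte markers did not move alike in the high class: Alb was called with 14 members and Ttr with 15, all positive, Cps1 with 11, of which 9 were positive, and Fgb with 18, all negative. Fgb, a fibrinogen chain, was negatively related to Gstt3 (r -0.52, rho -0.57) and Mgst3 (r -0.53, rho -0.58) in the high class, and Cyp2f2, a periportal gene, was positively related to Ugt2b38 (r 0.55, rho 0.56) and Sult5a1 (r 0.58, rho 0.57). Oat, a pericentral gene, was positively related to Gstt3 in the low class (r 0.60, rho 0.63). So was Ass1, a periportal gene (r 0.59, rho 0.57). Of the measured markers, 2 of 8 pericentral and 3 of 7 periportal ones were called with Gstt3 in that class, all positive. Cyp2f2 was positively related in the low class to Sult5a1 (r 0.46, rho 0.49) and Sult3a1 (r 0.36, rho 0.31). The permutation p of r was 3e-05 for Cyp2f2 and Sult3a1 and 1e-05 for the other relations. Markers of the same zone did not move alike. Over the 7 measured periportal markers r ran from -0.34 to 0.55 for Ugt2b38 and from -0.40 to 0.58 for Sult5a1 in the high class. In the low class it ran from -0.32 to 0.46 for Sult5a1 and from -0.45 to 0.36 for Sult3a1. Over the 8 pericentral markers r with Ugt2b38 in the high class ran from -0.25 to 0.48.

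The 3 measured neutrophil markers had the highest called share of the lists in the high class, 36.6%, with all 45 calls negative. Hepatocyte markers were close, at 35.4%. In the low class the neutrophil share was 18.7%, below the 22.3% of periportal and the 20.1% of hepatocyte markers. In the high class S100a9 gave 23 of the neutrophil calls, S100a8 gave 20 and Mmp9 gave 2. In the low class S100a9 had 11 and S100a8 had 9, all negative, while 2 of the 3 Mmp9 calls were positive. The summed linear intensity of the 3 markers ran from 60.9 to 2783 with a median of 87 in the high class. It ran from 59.7 to 6462 with a median of 96.5 in the low class, so single animals stood high in both. Kupffer cell markers (8 of 8 measured, none below the array medians) had 12.8% of pairs called in the high class and 11.6% in the low class, mostly negative (33 of 42 and 35 of 38). Their summed intensity ran from 1796 to 13721 with a median of 3987 in the high class and from 3133 to 21707 with a median of 5982 in the low class. Ugt2b38 was called with 7 of the 8 in the high class, all negative, with r from -0.35 to -0.16 over the 8. In the low class Ugt2b38 was called with none, but r was negative there too, from -0.215 to -0.154 over the 8. Whether these r values differed between the classes was not tested. Mgst3 was called in the high class with 5 of 7 stellate cell and fibroblast markers and 4 of 5 skeletal muscle markers, all positive. Gsta2 was called there with 4 of 7 stellate cell and fibroblast markers, all positive, and 3 of 8 Kupffer cell markers, all negative. Gstt3 was called with 4 of 8 Kupffer cell markers in the low class, all negative. Of the cholangiocyte, skeletal muscle and adipose markers, 4 of 5, 4 of 5 and 3 of 4 measured genes had high-class medians below every array median. The part of these cells in the results was not tested, and in bulk liver fewer cells of a type and less RNA per cell cannot be told apart.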

How the data were processed

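Per the submitters' processing notes, the authors summarised the arrays with RMA into normalized intensities on a linear scale, and its settings are not given in the sources used here. The log2 of the deposited intensities was taken with no pseudocount. Of 32640 probe sets, 25508 carried 1 gene symbol and 7132 none. Each of 16643 genes was represented by its probe set of highest mean. The members, lists and rules were chosen with earlier results of these data known. The Eif2s3y-high class held 146 animals and the Eif2s3y-low class 148, which is n for every class value. Each animal has 1 array, so the spread between animals includes technical spread, and the number of arrays limits the precision. Shapes were called by BIC (at least 10 below the normal, means at least 1.5 SD apart), with scripts in Python 3.11.15, numpy 2.4.6 and scipy 1.17.1, tested on simulated data. Blocks were tested with limma 3.58.1 in R 4.3.3. Start-site windows were aligned with Biopython 1.88. No column of another series was used.

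The named genes were fixed by rule: each member by its median and, in more detail, up to 15 with the largest class difference, the widest, the called mixtures, the 8 pairs of highest and 4 of lowest r per class, the 4 with the largest block share, those beside a threshold, and up to 3 genes of each pathway list with most called pairs. Pathway and marker pairs with single members, and Sult3a1 pairs beyond that rule, were chosen after their values were seen.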

Additional observations from a re-analysis of the deposited data

How the results depend on the processing

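Alternatives covered quantile normalization, leaving out the least correlated arrays, the mean of all probe sets of a gene, removal of block means, a filter on dim genes, a 1.5-fold threshold, Spearman's rho, removal of the first principal component, each class alone or both together, and, added after the data were seen, leaving out the animal lowest in most members and a 5% component minimum. No called value changed sign, the untested median r of the Mgst pairs did, and 14 alternative values of the main counts and family medians moved beyond their limits, all given here. The number of mixtures in the high class fell from 12 to 5 without the least correlated arrays and to 4 with the 5% minimum. In the low class it was 3 instead of 6 among genes above the median mean, and 16 over both classes together after class means were removed, where Ugt2b38 was called 1:2:1 over classes of unlike SD. The counts of 5, 3 and 16 are given without a share of all genes. The members differing between blocks numbered 7 in the low class alone, beside 21 over all animals, a fit with fewer animals. Members of at least 2-fold spread in the low class numbered 3 among genes above the median mean, which leaves out Sult3a1 and Ugt2b37. At 1.5-fold they were 21 in each class, and no share of all genes is given at that fold. The median spread over all genes was 1.38-fold in the high class and 1.36-fold in the low class. By class median, 7 members differed by 1.5-fold, against 1.65% of all genes. Among genes above the median mean, 0 members differed by 1 log2, since Sult3a1 and Ugt2b38 fall under that filter. The median r of the Ugt genes in the high class was 0.38 without the least correlated arrays and 0.37 by Spearman's rho. The median r of the 3 Mgst pairs was -0.065 instead of -0.15 in the low class under quantile normalization. In the high class it changed sign, from -0.12 to 0.0528, with the mean of all probe sets. The second probe set of Mgst3 had a median of 3.48 in the high class and an r of 0.16 with the first. With both averaged, the Mgst3 medians were 6.17 and 6.48, and its spread in the low class was 1.35-fold. The Sult1d1 medians were then 9.06 and 9.60. No paired analysis was possible because the labels give 1 group. Dim genes are limited by signal over background.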
